A study of Mus musculus with 11 samples.

Results

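The 3 FoxO transcription factor genes Foxo1, Foxo3 and Foxo4 and 6 genes known as FoxO, quiescence or starvation targets (Sesn1, Sesn3, Ccng2, Trp53inp1, Pik3ip1 and Bcl6) were followed in muscle stem cells of the mouse. They were taken by symbol, through the Ensembl identifiers of the table, and make up 9 of its 48709 genes. All 9 passed the filter on low counts. In cells fixed right after isolation 8 of the 9 were lower than in cells fixed inside the muscle, where 22.9% of all genes tested were. The falls ran from 1.75-fold for Sesn3 to 7.14-fold for Pik3ip1, and Ccng2 did not pass the test. The way of fixation differed as well as the isolation. None of the 9 was called changed between cells isolated at once and cells given a further 2 h at 37°C, where 2.17% of all genes were. With the further 2 h, 7 of the 9 were called lower than in cells fixed inside the muscle, beside 22.5% of all genes.

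FoxO proteins are forkhead transcription factors that read the supply of nutrients and growth factors. When insulin or IGF-1 acts through PI3K, the kinases Akt and Sgk phosphorylate them, 14-3-3 proteins bind them and they are kept out of the nucleus. When that signal is low they enter the nucleus and switch on genes of cell cycle arrest, autophagy and stress resistance, and in muscle stem cells they are known for a part in keeping the cells quiescent. RNA levels do not report where the proteins are.

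RNA was sequenced from muscle stem cells of Tg:Pax7-nGFP mice (C57BL/6), in which a nuclear green fluorescent protein driven by Pax7 marks these cells, from pectoral, forelimb and hindlimb muscles. Age and sex are not given in the labels used here. In T0 (3 libraries) the whole muscle was fixed in 0.5% paraformaldehyde for 1 h at 4°C, so that the cells were fixed in place. In T3 (4 libraries) the cells were first isolated in the usual way by FACS and then fixed in 0.5% paraformaldehyde for 30 min on ice. T5 (4 libraries) had 2 h at 37°C in addition and the fixation of T3. The treatment protocol places these 2 h before the sort, with the dissected muscles in DMEM, and the series description places them after the isolation, which was not settled. T5 libraries that share a letter in their titles were summed into 1 replicate each (A and B), giving n = 3 for T0, n = 4 for T3 and n = 2 for T5. T3 against T0 asks what differs after isolation, but the 2 groups were also fixed differently, and isolation and fixation cannot be told apart. T5 against T3 asks what the added 2 h did. The labels do not say that libraries came from separate animals. The p-values therefore rest on the scatter among these libraries, and it may be technical scatter. The comparisons share their T0, T3 or T5 libraries with each other.

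The libraries held total counts between 49078859 and 67251946 (T0), 52632553 and 72638711 (T3), and 61837170 and 102347035 (T5). Of 31999 genes tested 37.9% were called in T3 against T0 (15% higher and 22.9% lower), 2.17% in T5 against T3 and 35.7% in T5 against T0. With upper-quartile scaling the calls for T3 against T0 were 7159 higher and 5798 lower, in place of 4807 and 7332. The T0 libraries differed most among themselves: on the first principal component (57.9% of the variance) they lay at -158, -121 and -80.4, the T3 libraries between 50.7 and 61.1, and T5 at 65.1 and 69.5. T0 replicate 3 lay nearest to the isolated cells, and each of the 9 genes was at 28.7 to 67.5% there of the mean of the other T0 replicates. The summed level of 9 muscle stem cell markers was 4500 to 6356 CPM (counts scaled to library size) in T0, 2028 to 2552 in T3 and 1743 and 1828 in T5, with none at 0 in any replicate. Of these 9 markers 3 rose and 4 fell in T3 against T0 (median log2 fold change -0.13), and Pax7 made most of the difference in the sum: it was at 3137 to 4440 CPM in T0 and 249 to 399.9 in T3. The other 8 summed to 1238 to 1915 CPM in T0, 1742 to 2303 in T3 and 1418 and 1522 in T5. Markers of 6 other cell types gave 5.99 to 670.7 CPM per type and replicate, none of them at 0 among those tested. Endothelial markers were highest in T3: they summed to 289.6 to 341 CPM in T0, 510.3 to 609 in T3 and 307 and 309 in T5. Of 12, 6 rose in T3 against T0 and 5 fell in T5 against T3, while 0 were called in T5 against T0. Of 16 myofibre markers 11 rose and 2 fell in T3 against T0, with sums of 188 to 219 CPM in T0 and 211 to 283 in T3, and 6 fell in T5 against T3. Monocyte and macrophage markers summed to 26.0, 28.7 and 54.4 CPM in T0 replicates 1, 2 and 3 and to 41.0 to 61.4 in T3. Their part in the results below was not tested. In such bulk libraries fewer cells of a type and less RNA per cell cannot be told apart.

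Promoter stretches of the genes are shown for the letters that FoxO proteins bind, since several of the genes are known FoxO targets. RefSeq (GRCm38.p6) gave 9 windows for 7 of the genes, each of 300 bases from 250 before to 50 after an annotated start, and Foxo4 and Trp53inp1 had no entry. The core GTAAACA was searched on both strands, and reads TGTTTAC when it lies on the opposite one. The shorter motif AAACAA was searched likewise, with the opposite reading TTGTTT. Both motifs can share bases where the first one runs on with another adenine. Capitals mark a match, and sequences run 5′ to 3′ on the strand of the gene.
Foxo1, chr3:52268256-52268335 (+), just before the start, no match: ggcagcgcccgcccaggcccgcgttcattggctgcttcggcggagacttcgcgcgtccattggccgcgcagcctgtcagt
Sesn1, first window, chr10:41810588-41810617 (+), inside an annotated UTR exon: ccttctacTGTTTACcagccttttgggacc
Sesn1, second window, chr10:41887359-41887438 (+), outside annotated exons: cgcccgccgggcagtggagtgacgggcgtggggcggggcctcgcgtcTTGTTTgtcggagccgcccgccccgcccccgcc
Ccng2, chr5:93267551-93267580 (+), inside an annotated UTR exon: cagactcaAAACAAAAACAAggggtttgct
GTAAACA was in 1 of the 9 windows, against 3.65% of 32851 mouse windows of this length, and AAACAA in 2 of the 9, against 20.7%. The second Sesn1 window held another AAACAA match 169 bases before the start. Ccng2, which did not pass the test, held 2 matches, and the Foxo1 window held none. A match describes the letters in this window only. The windows of Foxo1, Foxo3, Sesn3, Ccng2 and Sesn1 were rich in G and C (61.3 to 75%, against a median of 52.7% over all windows), while that of Pik3ip1 had 54.7% and the pair of Bcl6 had 51.7 and 62.7%.

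Foxo1, Foxo3 and Foxo4 were all lower in T3 than in T0. Foxo1 (ENSMUSG00000044167.6, GRCm38 chr3:52268336-52353221), the FoxO factor with the highest count here, stood at 741, 748 and 319.8 CPM in T0 replicates 1 to 3, at 122, 140.1, 134 and 141 in T3 and at 131 and 118 in T5. The lowest T0 replicate was more than the highest of the other groups, while T3 and T5 overlapped. Foxo1 fell from 603 ± 245 to 134 ± 9.04 CPM (mean ± SD, n = 3 and 4), a log2 fold change of -2.17 ± 0.25 (SE) with an adjusted p of 2.76e-07 in edgeR's quasi-likelihood test. Gm20402 and Gm38034 overlap Foxo1 and held 2.23 to 3.41% of its count.

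Foxo3 (ENSMUSG00000048756.11, chr10:42181841-42276755), known as a factor of quiescence in muscle stem cells, stood at 508, 578 and 185 CPM in T0. It was at 74.4, 114, 109.5 and 102 CPM in T3 and at 107 and 103 in T5. As with Foxo1, T0 replicate 3 was the lowest of its group and yet above each isolated replicate. The log2 fold change from T0 to T3 was -2.08 ± 0.28, a 4.24-fold lower level (adjusted p = 2.45e-06). Foxo4 (ENSMUSG00000042903.8, chrX:101254528-101260873), a less abundant factor of the family, stood at 39.1, 36.2 and 25.4 CPM in T0 and at 10.3, 17.6, 20.1 and 12.4 in T3. Its groups did not overlap, and it fell by 1.15 ± 0.23 on the log2 scale (adjusted p = 0.000284). In T5 Foxo4 was at 13.5 and 12.5 CPM, within the range of T3.

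**Figure D1:**
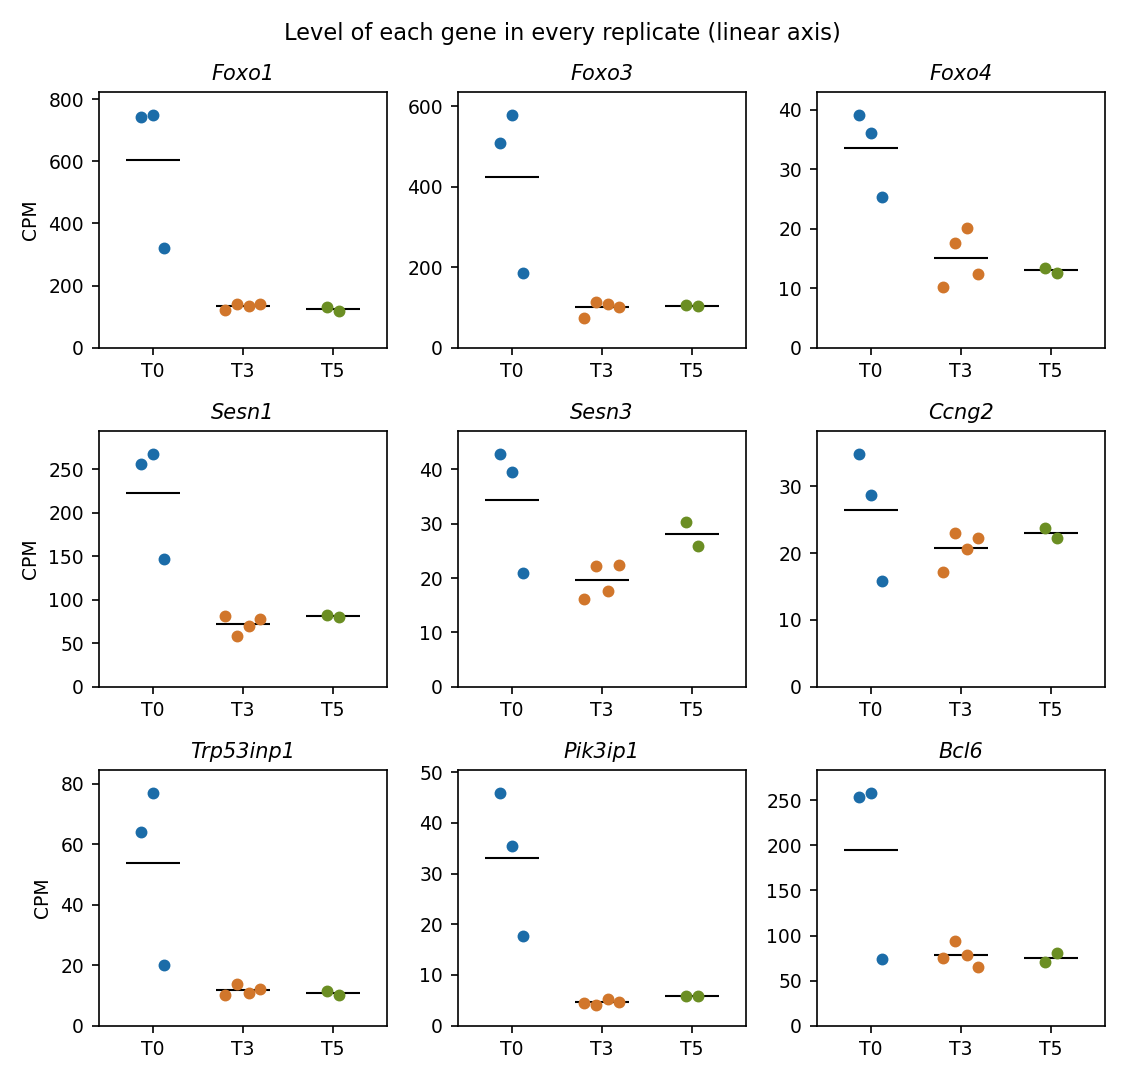
Level of each of the 9 genes in every replicate, in CPM on a linear axis, for T0 (n = 3), T3 (n = 4) and T5 (n = 2), with a bar at the mean of the group. T0 replicate 3 is the lowest T0 point in each panel, and for Sesn3, Ccng2 and Bcl6 it lies within or below the range of T3.

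Since a longer gene collects more reads, the family was also compared per kilobase of annotated exon. The 4 FoxO genes, with Foxo6 as the remaining one, had summed levels of 165, 174 and 70.5 CPM per exonic kb in T0, of 28.2, 37.5, 37.1 and 34.6 in T3 and of 35.6 and 33.2 in T5. All isolated replicates thus lay below all T0 replicates. Foxo1 made up 49.5 to 52.4% of that sum in T0, 41.8 to 49.8% in T3 and 42.6 and 41.0% in T5. The share of Foxo3 was 34.6 to 43.8% in T0 and 34.9 to 40.0% in T3, so that the groups overlapped. Foxo4 had 5.95 to 10.34% in T0 and 10.3 to 15.5% in T3. Foxo6 had at most 2.70% in T0, 3.52 to 4.93% in T3 and 6.97 and 7.41% in T5. These shares were not tested, and they depend on the length used. Whether reads of introns were counted is not given. Over the whole gene span, the T0 mean of Foxo4 was above that of Foxo3 (5.29 against 4.46 CPM per kb). In T3 the mean of Foxo4 over the span (2.38) was above those of Foxo1 (1.58) and Foxo3 (1.05).

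Foxo6, known mainly from the brain, differed from the other 3 FoxO genes in its values. It was at 3.57, 3.54 and 4.97 CPM in T0 and at 3.29 to 3.63 in T3, and the difference did not pass the test (log2 fold change -0.21 ± 0.21, adjusted p = 0.49). In T5 Foxo6 reached 6.49 and 6.45 CPM, above each T3 replicate, and was called higher than in T3 (0.89 ± 0.23, adjusted p = 0.0382). That call was lost in 9 of 14 alternatives, among them each one that left out a T3 or T5 replicate, and the adjusted p ranged from 0.00241 to 0.501.

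The sestrins restrain mTORC1, the kinase complex that promotes growth when amino acids are at hand, and Sesn1 and Sesn3 are known FoxO targets. Sesn1 (ENSMUSG00000038332.12, chr10:41809935-41908424) stood at 255.5, 267 and 146.5 CPM in T0, at 80.95, 58.1, 69.4 and 78.1 in T3 and at 82.1 and 79.5 in T5. Each T0 replicate was above each isolated one. The level in T3 was 3.11-fold lower than in T0, a log2 fold change of -1.64 ± 0.22 (adjusted p = 2.5e-06). Sesn3 (ENSMUSG00000032009.8, chr9:14275067-14333101) stood at 42.8, 39.4 and 20.9 CPM in T0, at 16.1, 22.2, 17.6 and 22.5 in T3 and at 30.3 and 25.8 in T5. T0 replicate 3 lay inside the range of T3, and both T5 values lay above T3 and between the T0 values. Sesn3 fell by 0.81 ± 0.23 on the log2 scale from T0 to T3 (adjusted p = 0.0067).

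Sesn2, the sestrin induced by stress and a paralog of the pair, went the other way. It stood at 2.57, 2.59 and 2.21 CPM in T0, at 29.1, 25.1, 22.5 and 31.9 in T3 and at 60.1 and 65.8 in T5, with no overlap between any 2 groups. The rise from T0 to T3 was 11.05-fold (log2 3.47 ± 0.23, adjusted p = 1.77e-10) and that from T3 to T5 was 2.32-fold (1.21 ± 0.21, adjusted p = 0.00178). Without T5 replicate B the second rise was not called (adjusted p = 0.102, range over the alternatives 5.68e-05 to 0.102). Per exonic kb, Sesn1 made up 94.8, 95.3 and 94.8% of the 3 sestrins in T0, 62.7 to 69.6% in T3 and 51.7 and 49.2% in T5. The share of Sesn2 was between 1.06 and 1.64% in T0, between 25.8 and 31.03% in T3, and 43.4 and 46.6% in T5. The summed level of the 3 genes was 67.7, 70.4 and 38.8 CPM per exonic kb in T0, 23.3 to 30.3 in T3 and 39.9 and 40.6 in T5, so that T5 lay above T3 and overlapped with T0. Shares and sums of the sestrins also depend on the length used. The whole span is 98490 bases for Sesn1 and 18470 for Sesn2, against 3982 and 3475 in exons. Sesn1 overlaps 9930024M15Rik, for which no count was used, and Sesn2 overlaps another annotated gene. The values of both are uncertain to that extent.

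**Figure D2:**
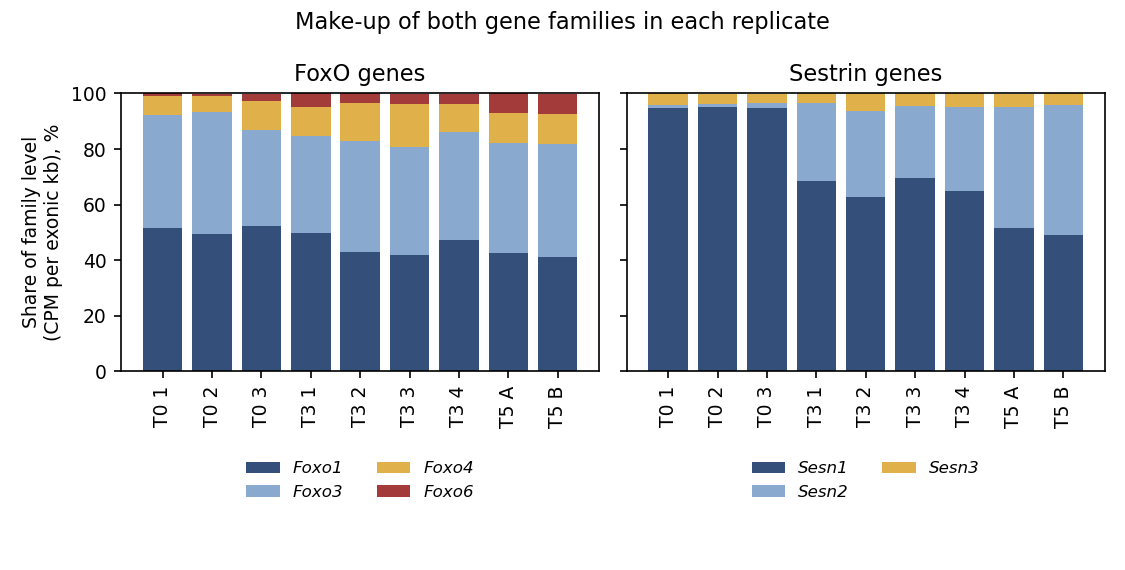
Share of each gene in the summed level of its family, in percent of CPM per exonic kb, for the 4 FoxO genes (left) and the 3 sestrins (right), with 1 stacked bar per replicate. With exon lengths, Foxo1 and Foxo3 lead in every replicate on the left. On the right Sesn2 goes from at most 1.64% in T0 to 43.4 and 46.6% in T5. The shares depend on the length used.

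Pik3ip1 and Trp53inp1 had the lowest fold changes of the 9. Pik3ip1 (ENSMUSG00000034614.14, chr11:3330401-3342971) encodes a membrane protein that inhibits PI3K, the kinase upstream of Akt. It stood at 45.8, 35.5 and 17.65 CPM in T0, at 4.38, 4.13, 5.23 and 4.71 in T3 and at 5.94 and 5.88 in T5. The lowest T0 replicate was far above all isolated ones, and both T5 values were slightly above T3. The fall from T0 to T3 was 7.14-fold (log2 -2.84 ± 0.25, adjusted p = 9.76e-09). Gm12592 lies on the opposite strand, shares 778 bases with Pik3ip1 and had 115.5 to 232% of its count. Gm12592 fell likewise (-2.15 ± 0.24, adjusted p = 1.86e-07). Since Tsix had 1.004 to 1.014 times the count of Xist, which it covers on the other strand, in each library, the counts held reads of both strands, and reads of the pair cannot be told apart where they overlap.

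Trp53inp1 (ENSMUSG00000028211.11, chr4:11156431-11174379) encodes a protein of autophagy and of the p53 response. It stood at 64.2, 76.9 and 20.2 CPM in T0 and at 9.99, 13.75, 10.9 and 12.1 in T3. T0 replicate 3 was at 28.7% of the mean of the other T0 replicates, the furthest below them of the 9 genes, and still above T3. The log2 fold change was -2.20 ± 0.29 (adjusted p = 2.15e-06), and T5, at 11.4 and 10.3 CPM, lay within T3. Its paralog Trp53inp2, a nuclear protein that also takes part in autophagy, did not pass the test (0.09 ± 0.21, adjusted p = 0.784). Trp53inp2 was at 15.1, 14.6 and 9.24 CPM in T0 and at 12.1 to 16.8 in T3.

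Bcl6 (ENSMUSG00000022508.5, chr16:23965052-23988852) encodes a zinc finger repressor of transcription that FoxO factors induce in other cells. It stood at 254, 258 and 74.3 CPM in T0, at 75.4, 94.2, 78.8 and 65.1 in T3 and at 70.1 and 80.4 in T5. T0 replicate 3 lay within the range of T3, and the other T0 replicates far above it. Gm37419 overlaps Bcl6 and held 1.04 to 1.96% of its count. Bcl6 fell by 1.32 ± 0.29 on the log2 scale from T0 to T3 (adjusted p = 0.000743), and by 1.71 without T0 replicate 3 (adjusted p = 7.26e-07, range over the alternatives 7.26e-07 to 0.0125). Its paralog Bcl6b rose from 1.48 ± 0.376 CPM in T0 to 6.61 ± 0.682 in T3 (n = 3 and 4), with no overlap (log2 2.15 ± 0.24, adjusted p = 1.47e-07).

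Ccng2 (ENSMUSG00000029385.14, chr5:93267257-93276231) encodes cyclin G2, an unusual cyclin that slows the cell cycle, and was the one gene of the 9 that was not called in T3 against T0. It stood at 34.8, 28.7 and 15.8 CPM in T0, at 17.2, 23.0, 20.7 and 22.3 in T3 and at 23.8 and 22.25 in T5. T0 replicate 3 was the lowest of all 9 replicates and the other T0 replicates were the highest. The log2 fold change was -0.34 ± 0.23 (95% confidence interval -0.82 to 0.13, adjusted p = 0.274). Without T0 replicate 3 it was -0.61 with an adjusted p of 0.00378, in a range of 0.00378 to 0.998 over the alternatives, and all 9 genes were then called lower, as were 8875 of 31553 genes tested. The paralog Ccng1, a p53 target, fell from 12.3 ± 3.17 to 4.74 ± 0.58 CPM (n = 3 and 4), a log2 fold change of -1.38 ± 0.22 (adjusted p = 1.56e-05).

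Over the 9 genes, then, 8 were called lower in T3 against T0 and 0 higher, where 22.9% of all genes tested were called lower. The genes tested include many of low count. With a filter of CPM of at least 1 in 2 replicates, 6562 of 22571 genes were called lower, a larger share, beside 8 of the 9. The median log2 fold change of the 9 was -1.64, beside 0.05 for all genes tested. The 9 genes were chosen with earlier results of these data known. The contrast with all genes is therefore a description, here and for T5 against T0 below. For 6 of them (Foxo1, Foxo3, Foxo4, Sesn1, Trp53inp1 and Pik3ip1) every T3 replicate was below every T0 replicate, as for 22% of all genes. The 8 calls held in each of 16 alternatives, including that without T0 replicate 3, under which the fold changes of the 9 genes ran from -0.61 for Ccng2 to -3.14 for Pik3ip1.

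Between T5 and T3 edgeR called 0 of the 9 genes at an adjusted p under 0.05, where it called 2.17% of all genes tested. None had an unadjusted p under 0.05, and DESeq2 called 0 as well. The median log2 fold change was 0.07, beside 0.05 for all genes. Sesn3 had the highest value, 0.52 ± 0.26 (95% confidence interval -0.02 to 1.05, adjusted p = 0.408), and its T5 pair lay above T3. It was called in a fit of T3 and T5 alone (0.55, adjusted p = 0.038, range over the alternatives 0.038 to 0.998). Pik3ip1 also lay above T3 in both T5 replicates, with 0.36 ± 0.28 (-0.22 to 0.93, adjusted p = 0.621). Both T5 replicates lay above all T3 replicates for 19.3% of all genes. The intervals of the FoxO factors were -0.69 to 0.47 for Foxo1, -0.59 to 0.72 for Foxo3 and -0.77 to 0.33 for Foxo4. Changes of up to these sizes could thus have been missed, and the 9 genes are not shown to be unchanged.

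The single T5 libraries varied more than their sums. Over all genes the closest pair of T5 libraries had unlike letters (chi-square per gene 16.3), while the pairs that were summed differed more (98.2 for A and 102 for B). Each sum therefore joins unlike libraries, and the spread between A and B is less than that among the 4. With the 4 libraries as replicates 0 of the 9 genes were called in T5 against T3 and 7 in T5 against T0, as with the sums. Foxo1 was at 160.0 and 104 CPM in the pair of letter A and at 117 and 121 in that of letter B. Sesn1 was at 107 and 57.5 CPM in the first pair and 62.1 and 102 in the second, a wider range than that of the T3 libraries. For Pik3ip1 the 4 libraries lay between 5.35 and 6.68 CPM, and the highest T3 replicate was at 5.23. The single libraries were scaled apart from the replicates, so this small margin does not show that all 4 lay above T3.

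Against T0, 7 of the 9 genes were lower in T5, where 22.5% of all genes tested were called lower. The median log2 fold change of the 9 was -1.46, beside 0.18 for all genes. Pik3ip1 was lower by 2.48 ± 0.32 on the log2 scale, a fall called at an adjusted p of 2.77e-06. The log2 fold change was -2.31 ± 0.38 for Trp53inp1 and -2.27 ± 0.32 for Foxo1. Sesn3 (-0.29 ± 0.28, adjusted p = 0.423) and Ccng2 (-0.20 ± 0.28, adjusted p = 0.587) did not pass the test. Without T0 replicate 3 both did, with -0.55 (adjusted p = 0.0241, range 0.0241 to 0.853) and -0.46 (adjusted p = 0.0375, range 0.0375 to 0.918). Bcl6 was called lower (-1.38 ± 0.37, adjusted p = 0.00449), with T0 replicate 3 inside the range of T5, but not in a fit of T0 and T5 alone (-1.12, adjusted p = 0.0771, range 4.78e-06 to 0.0771).

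**Figure D3:**
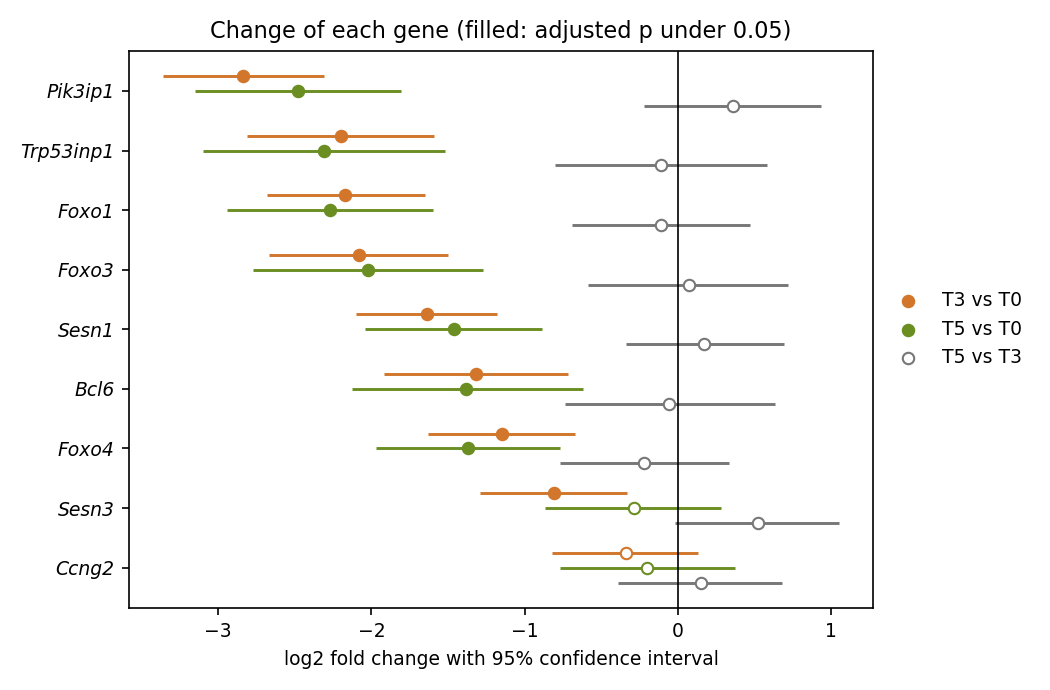
Log2 fold change of each of the 9 genes with its 95% confidence interval, for T3 against T0, T5 against T0 and T5 against T3, with filled points for an adjusted p under 0.05. All T5 against T3 intervals span 0, and Ccng2 has no filled point.

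In T0 the level per exonic kb was highest for Foxo1 (69.6 ± 28.3 CPM per kb), followed by Sesn1 (56.0 ± 16.7) and Foxo3 (56.0 ± 27.7), n = 3 each. The ranges of these 3 genes overlapped across libraries, but T0 replicate 3 was low for each of them. Within each T0 replicate Foxo1 had a larger share of the FoxO sum than Foxo3. The shares were 51.75, 49.5 and 52.37% for Foxo1 and 40.64, 43.77 and 34.59% for Foxo3. The order of genes was not tested, and the overlaps given below are also across libraries. Bcl6 came next with 29.2 ± 15.7 CPM per exonic kb, and its replicates overlapped with those of Foxo3 above it and Foxo4 below it. Foxo4 (9.63 ± 2.07), Trp53inp1 (8.30 ± 4.59), Pik3ip1 (7.72 ± 3.34) and Ccng2 (4.84 ± 1.78) followed, each overlapping with its neighbour. Sesn3 was the lowest at 2.25 ± 0.771 CPM per exonic kb, with each T0 replicate below those of Ccng2. Whether reads of introns were counted is not given, and the order depends on the length used: over the whole gene span Bcl6 ranked first, Foxo1 second and Sesn1 8 of 9. In T3 Sesn1 (17.99 CPM per exonic kb), Foxo1 (15.5), Foxo3 (13.2) and Bcl6 (11.7) had the highest means, and Pik3ip1 the lowest (1.08).

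Of 25 genes of the insulin, PI3K and Akt pathway, which controls FoxO proteins, 9 rose and 7 fell in T3 against T0 (36% and 28%, median log2 fold change 0.03), beside 15% and 22.9% of all genes. The share that fell was thus near that of all genes. Irs1, the adaptor that carries the insulin and IGF-1 signal to PI3K, stood at 257, 186 and 343 CPM in T0 and at 37.5 to 61.9 in T3, and fell by 2.58 ± 0.24 on the log2 scale (adjusted p = 1.63e-08). T0 replicate 3 had the highest Irs1 level, unlike its levels of the 9 genes. Pik3r1 and Pik3r2, regulatory subunits of PI3K, fell by 2.83 ± 0.27 (adjusted p = 2.18e-08) and 2.03 ± 0.21 (adjusted p = 6.2e-08). Another subunit gene, Pik3r3, rose from 7.47 ± 1.03 to 21.9 ± 4.38 CPM (1.55 ± 0.22, adjusted p = 3.72e-06). Sgk1, a kinase that phosphorylates FoxO proteins, rose from 53.8 ± 24.6 to 311 ± 40.3 CPM (2.53 ± 0.29, adjusted p = 2.18e-07), and Akt2 from 64.6 ± 19.4 to 128 ± 18.9 (0.99 ± 0.23, adjusted p = 0.00109). The groups are n = 3 and n = 4 in each of these pairs. In T5 against T3 edgeR called 0 of the 25, beside 2.17% of all genes. Of the 25, 4 had an unadjusted p under 0.05, and DESeq2 called 0.

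Of 18 genes for modifiers and partners of FoxO proteins 9 rose and 3 fell in T3 (50% and 16.7%, median 0.55), beside 15% and 22.9% of all genes. The 12 calls became 17 with upper-quartile scaling and 9 with scaling over genes without overlap. Ywhag and Ywhaz, which encode 14-3-3 proteins, rose by 1.76 ± 0.23 (adjusted p = 1.29e-06) and 1.21 ± 0.21 (adjusted p = 5.71e-05) on the log2 scale. Sirt1, a deacetylase of FoxO proteins, went from 26.3 ± 5.39 to 67.9 ± 5.62 CPM (n = 3 and 4, 1.37 ± 0.21, adjusted p = 9.88e-06). Skp2, a ubiquitin ligase subunit that targets Foxo1, fell from 62.4 ± 6.64 to 16.9 ± 1.84 CPM (n = 3 and 4, -1.88 ± 0.19, adjusted p = 5.16e-08). The kinase genes Prkaa2, a catalytic subunit of AMPK, and Stk3 fell by 0.96 ± 0.19 (adjusted p = 0.000287) and 0.90 ± 0.21 (adjusted p = 0.00114). In T5 against T3 edgeR called 0 of the 18, beside 2.17% of all genes. Of the 18, 1 had an unadjusted p under 0.05, and DESeq2 called 0.

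Of 30 other known FoxO targets 13 rose and 8 fell in T3 against T0 (43.3% and 26.7%, median 0.36), beside 15% and 22.9% of all genes. The cell cycle inhibitor Cdkn1a, also a p53 target, was at 3.68 to 9.87 CPM in T0 and at 56.4 to 99.6 in T3, and had the highest log2 fold change of the list (3.41 ± 0.30, adjusted p = 9.56e-09). Btg1, an antiproliferative gene, and Eif4ebp1, a repressor of translation under mTORC1, rose by 2.17 ± 0.25 (adjusted p = 2.37e-07) and 2.23 ± 0.25 (adjusted p = 2.39e-07). Rbl2, which encodes the pocket protein p130 of quiescent cells, fell from 67.8 ± 26.6 to 17.1 ± 2.27 CPM (n = 3 and 4, -1.99 ± 0.24, adjusted p = 5.34e-07). Klf15, a factor of the fasting response, fell by 2.25 ± 0.29 (adjusted p = 1.25e-06). The share of the 30 targets that fell was near that of all genes. Targets of this list were called in both directions, while those among the 9 genes that were called all fell. Both sets were chosen with earlier results of these data known, so this contrast is a description.

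Txnip and Fbxo32 were the 2 of these 30 targets called higher in T5 against T3 (6.67%, beside 1.28% of all genes). Txnip, an inhibitor of thioredoxin that responds to glucose, stood at 111.5, 115 and 31.4 CPM in T0, at 17.0, 25.9, 24.1 and 22.8 in T3 and at 60.6 and 55.2 in T5. It fell by 1.94 ± 0.30 from T0 to T3 (adjusted p = 1.33e-05) and rose by 1.36 ± 0.32 from T3 to T5 (adjusted p = 0.0246). Fbxo32, which encodes the ubiquitin ligase atrogin-1 of muscle wasting, stood at 41.5, 49.8 and 17.2 CPM in T0, at 28.8 to 52.7 in T3 and at 105 and 110.1 in T5. Its T5 values lay above all others, with a log2 fold change from T3 of 1.28 ± 0.30 (adjusted p = 0.023). The call of Txnip was lost in 6 of 14 alternatives (adjusted p between 4.35e-05 and 0.158) and that of Fbxo32 in 5 of 14 (0.000127 to 0.195). Both were lost without T5 replicate A or B and without T3 replicate 1, and Txnip also without T3 replicate 4.

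**Figure D4:**
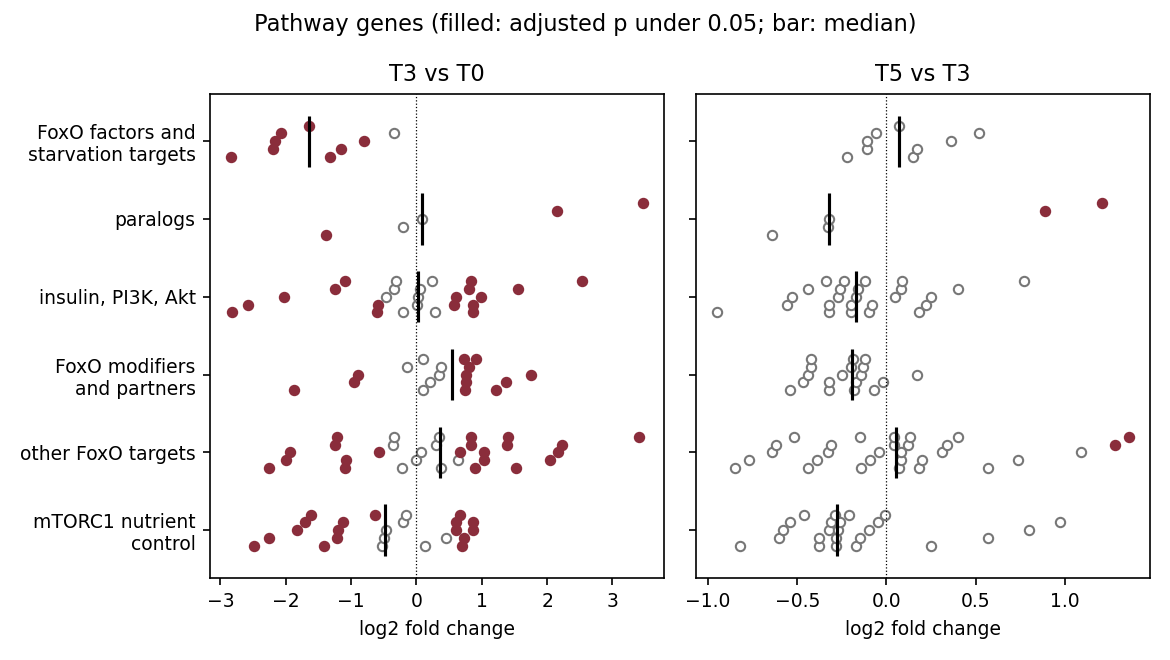
Log2 fold change of each gene of the 9 and of 5 lists around them, for T3 against T0 (left) and T5 against T3 (right, a narrower axis), with filled points for an adjusted p under 0.05 and a bar at the median of the list. The 9 genes lie below 0 on the left (median -1.64), whereas each of the other lists has filled points on both sides. All were chosen with earlier results of these data known.

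Of 24 genes of mTORC1 control, 7 rose and 10 fell in T3 against T0 (29.2% and 41.7%, median -0.48), beside 15% and 22.9% of all genes. The list holds genes of nutrient sensing and the sestrin axis, and also Ddit4, Deptor and Akt1s1. The 17 calls became 12 with scaling over genes without overlap. Rragb, one of the Rag GTPases that bring mTORC1 to the lysosome, fell from 17.3 ± 4.98 to 3.12 ± 0.281 CPM (n = 3 and 4, -2.48 ± 0.22, adjusted p = 1.07e-08). Lamtor4, part of the lysosomal anchor of the Rag GTPases, fell by 1.71 ± 0.22 (adjusted p = 1.52e-06). The GATOR2 complex, to which sestrins bind, was split, since Wdr24 fell by 1.83 ± 0.23 (adjusted p = 7.71e-07) and Wdr59 rose by 0.86 ± 0.21 (adjusted p = 0.00205). Seh1l, of the same complex, rose by 0.73 ± 0.21 (adjusted p = 0.00766), a call lost when scaling used only genes without overlap (adjusted p = 0.0574, range 0.000125 to 0.0574). Fnip1, a partner of folliculin, rose by 0.87 ± 0.24 (adjusted p = 0.0049). In T5 against T3 edgeR called 0 of the 24, beside 2.17% of all genes. Of the 24, 6 had an unadjusted p under 0.05, and DESeq2 called 0. Of the genes named from the 5 lists, Sesn2, Irs1, Pik3r1, Pik3r2, Pik3r3, Skp2, Sirt1, Cdkn1a, Rbl2, Txnip, Fbxo32, Wdr24, Wdr59, Seh1l and Fnip1 overlap another annotated gene and are uncertain to that extent.

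Genes with the most similar pattern were sought among 3284 protein-coding genes that overlap no other gene, by the root mean square difference of centred log2 CPM over the 9 replicates. The nearest to Foxo1 was Dctd, at 0.131, where the median candidate was at 1.04, and Dctd was also nearest to Trp53inp1, at 0.24. For Foxo3 it was Thap2 (0.219), for Foxo4 Ago1 (0.116) and for Sesn1 Hikeshi (0.102). Sesn3 was nearest to Slc25a38 (0.118), whose means were 12.7 CPM in T0, 8.02 in T3 and 10.5 in T5, and next to the HSP90 co-chaperone gene Fkbp4 (0.141). Ccng2 was nearest to Zfp212 (0.095), Pik3ip1 to Card10 (0.161) and Bcl6 to Wdr91 (0.201). The compared genes share libraries and depth, and the measure is a description.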

How the data were processed

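The deposited values are raw read counts for 48709 genes in 11 libraries. Named in the submitters' processing notes are the build GRCm38, the aligner STAR 2.5.0a, Subread with featureCounts 1.4.6-p3, and DESeq2 1.12.3 in R 3.3.1. Annotation release, strand setting and filters are not given in the sources used here. Identifiers were matched to GENCODE vM21 (48349 matched, 360 did not), the source of coordinates and exon lengths. Column numbers could not be matched to title letters within T0 and T3, so replicates carry the column number.

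Counts were tested two-sided in R 4.3.3 with the quasi-likelihood F test of edgeR 4.0.16, after filterByExpr by group and TMM scaling. T0, T3 and T5 entered 1 fit without covariates. Benjamini-Hochberg adjustment ran over all 31999 genes, and an adjusted p under 0.05 was a call. Standard errors were derived from F (the fold change on the log2 scale over its square root), and 95% intervals use the t distribution. For CPM, each count was divided by the library size after TMM correction. Scripts were tested on simulated data.

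The genes and lists were chosen with earlier results of these data known. The 9 genes are all described. From each pathway list the 3 called genes with the smallest adjusted p in each direction are named for T3 against T0 and for T5 against T3, and all paralogs. Likeness used a mean log2 CPM of at least 3, and the 2 nearest genes per member were computed. Alternatives were other scalings (upper quartile, RLE, genes without overlap), filters, 4 T5 libraries as replicates, fits of 2 groups, a replicate block, DESeq2 1.42.0 and leaving out each replicate.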

Additional observations from a re-analysis of the deposited data

How the results depend on the processing

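For the 9 genes in T3 against T0, 143 combinations of gene and alternative kept direction and side of the threshold, and in 1 further combination Ccng2 became called (without T0 replicate 3). The count of genes called was 8 to 9 when 1 replicate was left out and 8 with the replicate block, which changed no call of the 9. Whether the numbers pair T0 with T3 replicates is not known. The correlations of same-numbered deviations were -0.168, 0.21 and 0.22, and those of unlike numbers ran from -0.315 to 0.307. Values of this size over all genes cannot settle it, and T5 carries no such numbers. Upper-quartile scaling moved the median over all genes (log2) from 0.047 to 0.318 in T3 against T0 and from 0.183 to 0.505 in T5 against T0, and the 9 genes still gave 8 and 7 calls, all lower. Some values not called changed sign. For T5 against T3 these were Foxo3 at -0.04 with RLE, -0.05 with DESeq2 and -0.05 to 0.13 when 1 replicate was left out (below 0 without T3 replicate 1), and Bcl6 at -0.16 to 0.04 when 1 replicate was left out (above 0 without T3 replicate 2 or T5 replicate A). For T5 against T0 they were Sesn3 at 0.10 and Ccng2 at 0.20 with upper-quartile scaling, and Ccng2 at 0.04 in a fit of 2 groups and at -0.46 to 0.05 when 1 replicate was left out (above 0 without T0 replicate 1). The cause was not tested.

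Counts for T5 against T3 moved most. In a fit of T3 and T5 alone 1 of the 9 genes (Sesn3), 4 insulin, PI3K and Akt genes, 1 modifier, 6 other targets and 5 mTORC1 genes were called. With 4 T5 libraries as replicates 2 insulin, PI3K and Akt genes, 6 other targets and 2 mTORC1 genes were called. Without a filter 1 insulin, PI3K and Akt gene and 1 mTORC1 gene were called, and with the stricter filter 1 insulin, PI3K and Akt gene. Paralogs called went from 2 to 1 with upper-quartile scaling, RLE and scaling over genes without overlap, and to 0 to 1 when 1 replicate was left out. Other targets called went from 2 to 0 with RLE and with scaling over genes without overlap, and to 0 to 2 when 1 replicate was left out. Over all genes the T5 against T3 calls, 411 higher and 284 lower, became 446 and 456 with upper-quartile scaling, 268 and 255 with RLE, 287 and 204 with scaling over genes without overlap, 695 and 518 without a filter, 923 and 1199 with 4 T5 libraries, 1348 and 1645 with 2 groups, 334 and 688 with DESeq2, 165 and 59 without T5 replicate A, and 143 and 41 without T5 replicate B. T5 has 2 replicates, which limits what could be called there, and a fit without one of them assumes that the other varies like the remaining groups. Scaling over genes without overlap gave 3914 higher and 7803 lower in T3 against T0.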
